A study of Drosophila melanogaster with 15 samples.

Results

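The 6 conventional actin genes of Drosophila melanogaster were followed in RNA from filleted larvae: the muscle actins Act57B, Act87E, Act79B and Act88F and the cytoplasmic actins Act5C and Act42A. They were taken by gene symbol from the 15682 genes of each count file, and all 6 were among the 10930 genes that passed the expression filter. A fillet is a larva opened and emptied of its organs, so that mostly body wall muscle and the epidermis under the cuticle remain. All 5 genotypes carried the driver Mef2-Gal4, which acts in muscle, with 3 libraries each and 15 in all. Mef2>+ had the driver over the background w1118 and no second transgene, and Mef2>Deaf1 carried a transgene for the transcription factor Deaf1. Mef2>whiteRNAi expressed a hairpin against the eye pigment gene w, and Mef2>Deaf1RNAi expressed 1 hairpin against Deaf1. Mef2>Gsk3CA carried a transgene for an active form of the kinase Gsk3. Each transgene is represented by 1 line, and neither the age of the larvae nor the number in a library is stated in the labels.

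Actin is the subunit of the thin filaments of the sarcomere, on which myosin pulls, and of the filaments that shape the cortex of every cell. Flies have a separate gene for each main use. Act57B and Act87E are the actins of larval body wall muscle, Act88F serves the indirect flight muscles of the adult, Act79B serves other adult muscles such as those of the legs, and Act5C and Act42A are made in nearly all cells. The proteins are almost alike, so that the genes differ mainly in where they are switched on.

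In the BDGP6 annotation, a later build than the BDGP5 assembly to which the reads were mapped, the 6 genes lie apart on 4 chromosome arms. Act57B (FBgn0000044) and Act42A (FBgn0000043) are on 2R, Act87E (FBgn0000046) and Act88F (FBgn0000047) on 3R, Act79B (FBgn0000045) on 3L and Act5C (FBgn0000042) on X. Each has a coding length of 1128 bases. Their exons cover 1724 bases in Act57B, 1989 in Act87E, 1619 in Act79B, 1595 in Act88F, 2978 in Act5C and 1626 in Act42A, so coding sequence makes up from 37.9% of the exons in Act5C to 70.7% in Act88F. Because the coding sequences of actin genes are near copies of one another, a read inside them can align to several genes. Such reads were set aside in the deposited counts, as a separate entry for alignments that were not unique, and the level of each actin is uncertain to that extent. That entry held 2.53 to 2.60% of each Mef2>+ library and 3.55 to 5.68% of each of the other 12, and entries on no feature held 3.36 to 3.87% and 5.30 to 6.75%. The part of either in the differences from Mef2>+ was not tested. Act57B shares 96 bases of exon with snoRNA:660 on its own strand, and Act87E shares 60 bases with lncRNA:CR45591 on the opposite strand.

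The libraries held from 16186361 to 32756446 counts on genes. Levels are given as CPM, the counts of a gene per 1000000 counts of its library after scaling by TMM factors. For every test the quasi-likelihood model of edgeR was fitted to all 15 libraries at once, and an adjusted p under 0.05 (Benjamini-Hochberg over 10930 genes) was a call. The targeted genes were checked first. Deaf1 RNA was lower in Mef2>Deaf1RNAi (22.9 ± 1.24 CPM, mean ± SD, n = 3) than in Mef2>whiteRNAi (41.8 ± 2.69), with a log2 fold change of −0.87 and an adjusted p of 0.000903 from edgeR. In Mef2>Deaf1 it was at 43.2 ± 3.92 CPM against 34.8 ± 2.73 in Mef2>+, close to the level in Mef2>whiteRNAi, and this did not pass (log2 fold change 0.31, edgeR adjusted p = 0.0581). The Gsk3 gene sgg was at 400.3 ± 109 CPM in Mef2>Gsk3CA and 368.6 ± 99.4 in Mef2>+ (edgeR adjusted p = 0.779), so those libraries are called here the libraries labelled Gsk3CA. The study itself reports raised Deaf1 and Gsk3 mRNA with the respective transgenes, and smaller myofibers with either. The w gene was lowest in Mef2>whiteRNAi, at 13.3 ± 2.45 CPM. All 10 body wall muscle markers, among them myosin heavy chain (Mhc), were detected in every genotype, whereas the 3 indirect flight muscle markers together reached only 15.6 to 28.5 CPM per library. Most of that sum was salm, with a mean of 19.3 CPM over all libraries. TpnC4 had a mean of 0.40 CPM, and fln did not pass the expression filter.

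The exon length of a gene joined all its annotated transcripts, 5 for Act5C and 1 for Act57B. A single Act5C transcript can be shorter, which would raise its level per kilobase. Per kilobase of this joined exon length, used to compare levels of different genes, the larval actin Act57B had the highest level of the 6 genes in every library. Its lead over Act5C was small in Mef2>whiteRNAi replicate 1, where the RPKM ratio of the 2 genes was 1.02, and reached 15.8 in Mef2>+ replicate 3. Without division by length, Act5C had more counts than Act57B in 3 libraries, namely Mef2>whiteRNAi replicates 1 and 2 (ratio of Act57B to Act5C 0.591 and 0.991) and Mef2>Deaf1 replicate 3 (0.825). The mean of Act57B was 9856 RPKM (CPM divided by exon length in kilobases) in Mef2>+, followed there by Act87E at 1371, Act5C at 1000 and Act42A at 279 RPKM. Among all genes ranked by RPKM, Act57B stood between place 6 and place 35 in the 15 libraries, Act5C between 36 and 133, Act87E between 46 and 278, and Act42A between 187 and 328. Act79B and Act88F stood between places 8070 and 11540, with genotype means of 0.32 to 0.66 and 0.16 to 0.42 RPKM. The 6 genes took 0.92 to 2.60% of the gene counts of a library.

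Act57B varied most between genotypes of the 4 abundant genes. In the 3 Mef2>+ libraries it stood at 15483, 14362 and 21133 CPM, and in Mef2>Deaf1 at 5431, 4324 and 3542 CPM. Mef2>whiteRNAi gave 2750, 4298 and 7696 CPM, against 12283, 11859 and 10659 CPM in Mef2>Deaf1RNAi. The libraries labelled Gsk3CA gave 12908, 11726 and 9008 CPM. All Mef2>+ libraries therefore lay above all others, Mef2>Deaf1RNAi and the libraries labelled Gsk3CA overlapped in the middle, and Mef2>Deaf1 and Mef2>whiteRNAi overlapped at the low end. From the highest to the lowest genotype mean the difference was 3.83-fold, from 16993 ± 3629 to 4432 ± 949 CPM (mean ± SD, n = 3).

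Act87E, the other larval muscle actin, had nearly the same order at a lower level. It was at 2493, 2318 and 3372 CPM in Mef2>+ and at 1926, 1952 and 1133 CPM in the libraries labelled Gsk3CA. Mef2>Deaf1RNAi held 1814, 1824 and 1721 CPM. At the low end, Mef2>Deaf1 gave 1262, 980 and 819 CPM and Mef2>whiteRNAi 573, 850 and 1158 CPM, and these overlapped each other and replicate 3 of the libraries labelled Gsk3CA. Its genotype means spanned 3.17-fold, from 2728 ± 565 CPM in Mef2>+ to 860 ± 292 CPM in Mef2>whiteRNAi.

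Act5C, the more abundant cytoplasmic actin, moved over a narrower range. Its libraries were at 3262, 3358 and 2311 CPM in Mef2>+, 3590, 3709 and 4292 in Mef2>Deaf1, and 4652, 4335 and 3030 in Mef2>whiteRNAi. Mef2>Deaf1RNAi gave 3092, 3246 and 3464 CPM, and the libraries labelled Gsk3CA 2303, 2003 and 3929 CPM. Apart from Mef2>Deaf1, which lay above Mef2>+ and Mef2>Deaf1RNAi, the genotypes overlapped, and the means spanned only 1.46-fold. Neighbours in the order of the means, from Mef2>whiteRNAi down through Mef2>Deaf1, Mef2>Deaf1RNAi and Mef2>+ to the libraries labelled Gsk3CA, differed by less than the larger SD of each pair, except between Mef2>Deaf1 and Mef2>Deaf1RNAi.

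Act42A, the second cytoplasmic gene, was at 470, 479 and 413 CPM in Mef2>+ and at 672, 635 and 672 CPM in Mef2>Deaf1. Mef2>whiteRNAi gave 674, 520.1 and 484 CPM and Mef2>Deaf1RNAi 415, 468 and 518 CPM, while the libraries labelled Gsk3CA gave 330.3, 299 and 468 CPM. The Mef2>Deaf1 libraries were tightly grouped (659 ± 21.3 CPM) and lay above those of every genotype except Mef2>whiteRNAi. The means spanned 1.80-fold.

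The 2 adult actins were barely detected. Act79B had 6 to 32 counts per library and Act88F 4 to 22, that is 245 and 143 counts over all 15 libraries. In Mef2>Deaf1RNAi against Mef2>whiteRNAi the standard errors of their log2 fold changes were 0.46 for Act79B and 0.52 for Act88F, where those of the other genes ran from 0.17 for Act42A to 0.32 for Act57B.

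**Figure D1:**
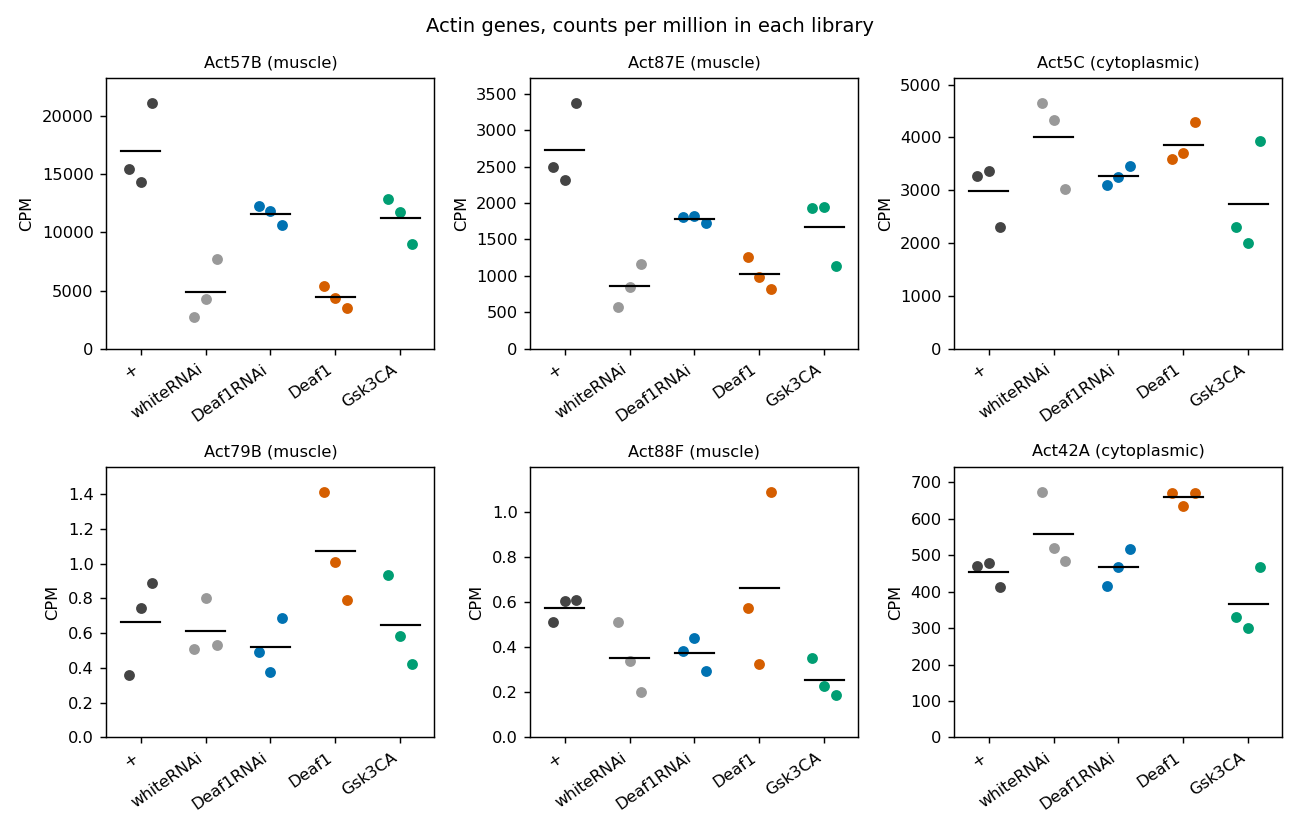
Counts per 1000000 (CPM) of the 6 actin genes in each of the 15 libraries, by genotype on the horizontal axis, with a point for each library and a bar for the mean of 3, on axes that start at 0. Act57B ran from 2750 to 21133 CPM, while Act79B and Act88F reached at most 1.41 and 1.09 CPM.

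The make-up of the actin transcripts was described by the percentage of the summed actin RPKM that the 4 muscle genes held. This muscle share was 88.1, 87.0 and 93.1% in Mef2>+, 86.1, 85.0 and 82.6% in Mef2>Deaf1RNAi, and 89.6, 90.1 and 78.3% in the libraries labelled Gsk3CA. It was 70.0, 64.7 and 57.1% in Mef2>Deaf1 and 48.8, 62.2 and 79.3% in Mef2>whiteRNAi. Every library of Mef2>Deaf1 was thus below every library of Mef2>+, and Mef2>whiteRNAi spread over a wider range than any other genotype (63.4 ± 15.3%, mean ± SD, n = 3). The sum of muscle actin RPKM ran from 9497 to 13950 in Mef2>+ and from 2467 to 3786 in Mef2>Deaf1. For the cytoplasmic sum the ranges were 1030 to 1422 and 1618 to 1854 RPKM. In bulk RNA from a fillet, less muscle relative to the other tissue and less actin RNA within the muscle cannot be told apart.

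**Figure D2:**
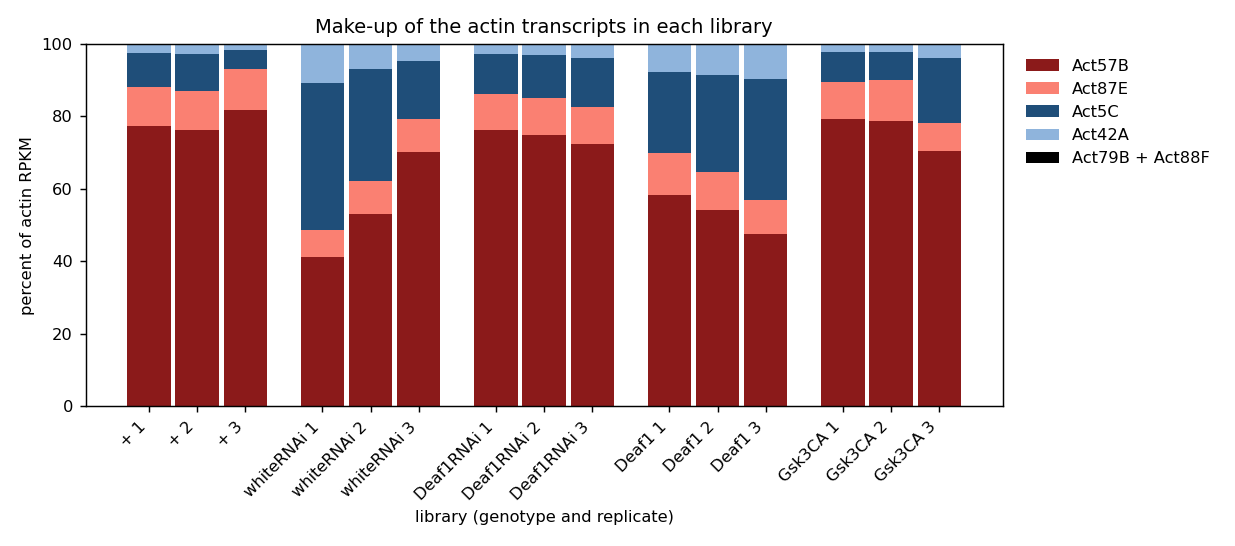
Percent of the summed actin RPKM (vertical axis, 0 to 100%) held by each gene in each library (horizontal axis, genotype and replicate). Act57B made up 41.3% (Mef2>whiteRNAi replicate 1) to 81.8% (Mef2>+ replicate 3), and Act79B and Act88F together are too small to see.

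Within the muscle class, the balance of the 2 larval genes also differed between genotypes. The RPKM ratio of Act57B to Act87E was 7.17, 7.15 and 7.23 in Mef2>+ and 4.97, 5.09 and 4.99 in Mef2>Deaf1, with no overlap. It was 5.54, 5.84 and 7.67 in Mef2>whiteRNAi, 7.81, 7.50 and 7.15 in Mef2>Deaf1RNAi, and 7.73, 6.93 and 9.17 in the libraries labelled Gsk3CA. These ratios are given as a description. The ratio of Act5C to Act42A stayed between 2.92 and 4.59 over the 15 libraries.

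The libraries labelled Mef2>Deaf1, in which Deaf1 RNA was not called higher, were compared with Mef2>+ for the effect of the Deaf1 transgene. Both larval muscle actins were lower. Act57B fell by 1.94 on the log2 scale (SE 0.33, edgeR adjusted p = 0.00298) and Act87E fell by 1.42 (SE 0.28, adjusted p = 0.00631), and for both genes all 3 Mef2>Deaf1 libraries lay below all 3 Mef2>+ libraries. Act42A was higher in every Mef2>Deaf1 library, with a log2 fold change of 0.54 (SE 0.17), and just missed the threshold (adjusted p = 0.0564). It passed with DESeq2 (adjusted p = 0.0086), with RLE size factors (0.0435) and in a fit of only the libraries compared (0.017). Act5C gave 0.38 (adjusted p = 0.373), also with no overlap. Neither Act79B (0.70, adjusted p = 0.375) nor Act88F (0.19, adjusted p = 0.841) passed.

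Of all genes tested in that comparison, 7.38% were called lower and 5.06% higher. The libraries of the 2 genotypes did not overlap in 17.4% of genes in the lower direction and in 15.8% in the higher. With Mef2>whiteRNAi as the control instead, neither larval actin was called: Act57B gave −0.15 (edgeR adjusted p = 0.826) and Act87E 0.25 (adjusted p = 0.65).

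The controls themselves differed. Mef2>whiteRNAi against Mef2>+ gave a log2 fold change of −1.79 for Act57B (SE 0.32, edgeR adjusted p = 0.00445) and −1.66 for Act87E (SE 0.28, adjusted p = 0.00313), again with no overlap. Fitted with only the 6 libraries compared, Act57B no longer passed (adjusted p = 0.0559). Act42A was higher in every Mef2>whiteRNAi library (0.30, adjusted p = 0.217), while Act5C overlapped (0.43, adjusted p = 0.229). Act79B (−0.10) and Act88F (−0.71) did not pass either. The background in this comparison was 10.2% of genes called lower and 6.3% called higher, with 18.5% not overlapping in the lower and 14.8% in the higher direction. The hairpin of Mef2>whiteRNAi and any difference in background between the 2 controls cannot be told apart.

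Deaf1 RNAi was compared with white RNAi to see the effect of lowering Deaf1. The same larval pair was higher in Mef2>Deaf1RNAi. Act57B gave a log2 fold change of 1.24 (SE 0.32, edgeR adjusted p = 0.0333) and Act87E gave 1.05 (SE 0.27, adjusted p = 0.0349), without overlap in either gene. Act5C (−0.29, adjusted p = 0.517), Act42A (−0.26, adjusted p = 0.381), Act79B (−0.24, adjusted p = 0.806) and Act88F (0.09, adjusted p = 0.949) did not pass, and their libraries overlapped. Over all genes tested, 5.48% were called higher and 3.33% lower, and 14.9% and 16% did not overlap in the higher and the lower direction.

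The call on the larval pair depended on the libraries and the fit. It was lost for both genes when any 1 of the 6 libraries except Mef2>whiteRNAi replicate 3 was left out, with edgeR adjusted p from 0.00306 to 0.106 for Act57B and from 0.013 to 0.134 for Act87E over the 6 omissions. In a fit of only the 6 libraries the adjusted p was 0.1 and 0.0614. Set against Mef2>+ instead, both genes had the opposite sign and were not called (−0.55 and −0.61, adjusted p = 0.278 and 0.183).

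In the libraries labelled Gsk3CA no actin gene passed against Mef2>+ with edgeR, nor with DESeq2 or limma voom. Of the 10930 genes tested there, 3807 had an unadjusted p under 0.05 with edgeR, among them 2 of the 6 actins. These were Act87E, with a log2 fold change of −0.71 (SE 0.27, adjusted p = 0.0933), and Act88F, with −1.14 (SE 0.52, adjusted p = 0.14) from 4 to 12 counts per library. Act57B gave −0.60 (SE 0.32, adjusted p = 0.2). All 3 genes had no overlap with Mef2>+. Act42A (−0.31, adjusted p = 0.209), Act5C (−0.12, adjusted p = 0.791) and Act79B (−0.02, adjusted p = 0.983) overlapped. The background was 8.87% of genes called lower and 5.19% called higher, with 19.8% and 16.7% not overlapping. Replicate 3 held less Act57B and Act87E and more Act5C and Act42A than replicates 1 and 2. The comparisons of Mef2>Deaf1, Mef2>whiteRNAi and the libraries labelled Gsk3CA with Mef2>+ share the same 3 control libraries, so their values are not independent of one another.

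**Figure D3:**
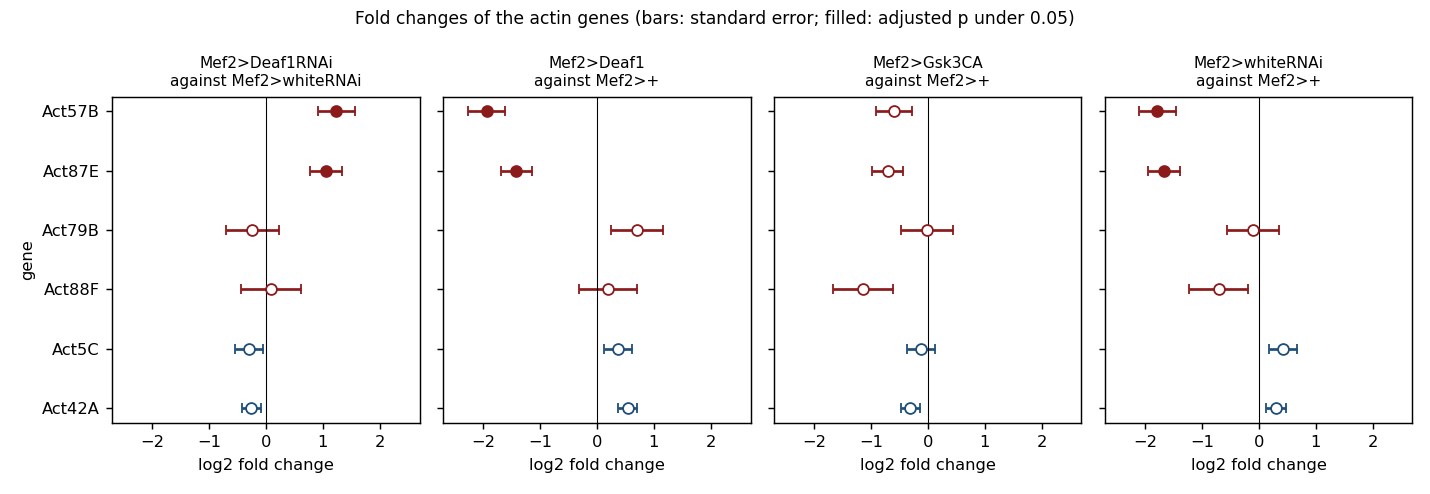
Log2 fold changes (horizontal axis) of the 6 actin genes (vertical axis) in the 4 comparisons, with bars for the standard error. Muscle genes are red, cytoplasmic genes blue, and filled points have an edgeR adjusted p under 0.05. Only Act57B and Act87E are filled, at 1.24 and 1.05 in Mef2>Deaf1RNAi, −1.94 and −1.42 in Mef2>Deaf1 and −1.79 and −1.66 between the controls.

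Among the 4 abundant genes, the larval muscle pair and the cytoplasmic pair ran against each other from library to library, also within a genotype. In Mef2>+, replicate 3 had the most Act57B (21133 CPM) and the least Act5C (2311 CPM). In Mef2>whiteRNAi, replicate 1 had the least Act57B (2750 CPM) and the most Act5C (4652 CPM). Over the 15 libraries the Pearson correlation of log2 CPM was 0.97 between Act57B and Act87E and 0.86 between Act5C and Act42A, but −0.75 between Act57B and Act5C. On deviations from the genotype means the same pairs gave 0.93, 0.88 and −0.78. With Act57B, Act79B and Act88F gave −0.25 and −0.15 over the 15 libraries, and 0.33 and −0.43 on deviations from the genotype means. Their counts are too low to judge whether they follow Act57B. These coefficients are descriptive: the libraries share genotypes, and in CPM a gain of abundant transcripts lowers the values of all others.

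**Figure D4:**
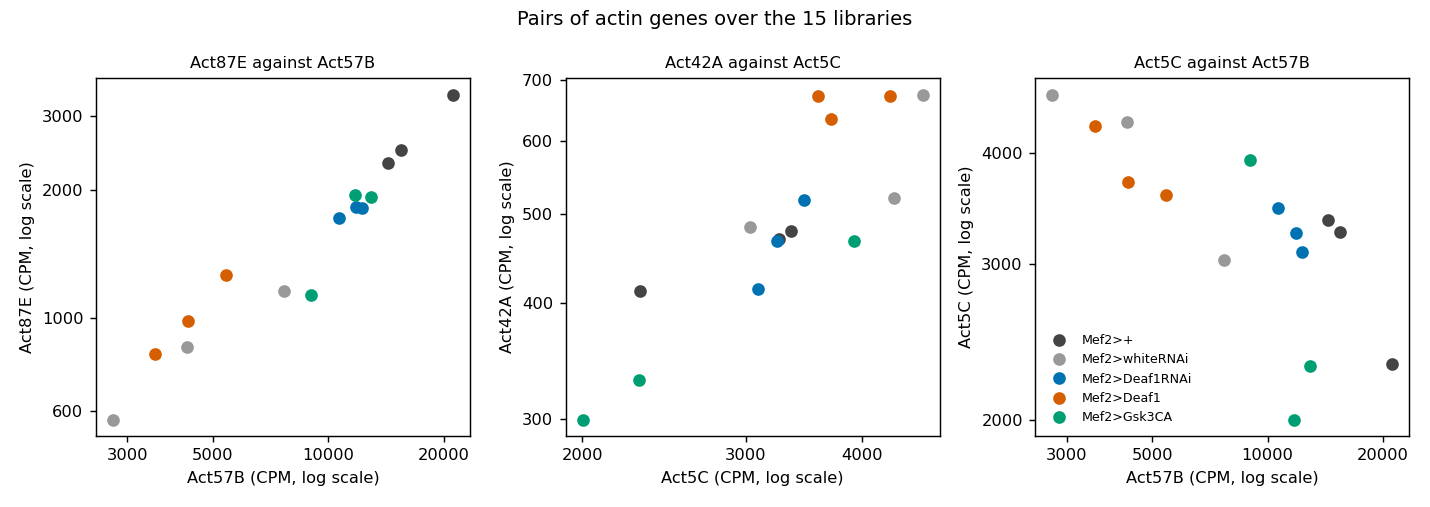
CPM of pairs of actin genes in the 15 libraries, on log axes, with colours for the genotypes. Act87E rises with Act57B (r = 0.97 of log2 CPM) and Act42A with Act5C (r = 0.86), whereas Act5C is lower where Act57B is higher (r = −0.75).

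The tested genes with the pattern most like that of each actin over the 15 libraries were found by the Pearson correlation of log2 CPM. For Act57B these were pyd3 (0.98), the troponin I gene wupA (0.97) and the tropomyosin gene Tm2 (0.97). Act87E was closest to Amph (0.98), which encodes amphiphysin, fbp (0.97), which encodes fructose-1,6-bisphosphatase, and wupA (0.97). Act5C was closest to CG31650 (0.99), cu (0.98) and mdy (0.98), a diacylglycerol acyltransferase gene. Act42A was closest to Mtp (0.97), TwdlE (0.95) and CG5854 (0.94). For the low counts of Act79B and Act88F the nearest genes were CG13089 (0.82), tho2 (0.76) and CG3434 (0.76), and CG5191 (0.89), emp (0.85) and Rac2 (0.84). Mean levels of Tm2 went from 4752 ± 748 CPM in Mef2>+ to 1891 ± 263 CPM in Mef2>Deaf1, and those of Mtp from 36.0 ± 3.35 to 52.2 ± 3.12 CPM. Tm2 and Mtp were picked here for their likeness over these same libraries, so such shifts follow from the choice.

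Genes for the proteins that bind actin in the thin filament and at the Z-disc were examined next. Of 13 tested partners, 8 fell and none rose in Mef2>Deaf1 (median log2 fold change −1.14, against −0.02 over all genes), where 7.38% of all genes were called lower. Against Mef2>+, 6 fell in Mef2>whiteRNAi (median −0.99), where 10.2% of all genes were called lower. In Mef2>Deaf1RNAi 4 rose and 1 fell (median 0.74, against −0.05 over all genes), beside 5.48% and 3.33% of all genes. In the libraries labelled Gsk3CA none passed with edgeR (median −0.46). The troponin T gene up was the most abundant, at 8369 ± 1234 CPM in Mef2>+ and 2705 ± 425 CPM in Mef2>Deaf1 (edgeR adjusted p = 0.00595). The tropomyosin genes Tm1 and Tm2 fell by 1.39 and 1.33 on the log2 scale there (adjusted p = 0.0099 and 0.0112). In Mef2>Deaf1RNAi up (1.07, adjusted p = 0.0525), Tm2 (0.99, adjusted p = 0.053) and Tm1 (0.74, adjusted p = 0.138) did not pass, whereas the alpha-actinin gene Actn, wupA and the troponin C genes TpnC25D and TpnC47D rose. TpnC41C, another troponin C gene, was the member that fell. These 5 were named after their values were seen.

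The markers of body wall muscle followed the same course. Of 10 tested, 9 fell in Mef2>Deaf1 (median −1.29, 7.38% of all genes called lower) and 10 fell in Mef2>whiteRNAi against Mef2>+ (median −1.20, 10.2% of all genes). In Mef2>Deaf1RNAi 8 rose (median 1.27, 5.48% of all genes called higher). None passed in the libraries labelled Gsk3CA (median −0.37). Myosin light chain 2 (Mlc2), Mhc and paramyosin (Prm) were the most abundant, and Mhc was at 11240 ± 4211 CPM in Mef2>+, 1602 ± 580.3 in Mef2>Deaf1, 3033 ± 2051 in Mef2>whiteRNAi and 11930 ± 539 in Mef2>Deaf1RNAi. In Mef2>Deaf1, Mhc fell by 2.81, Mlc2 fell by 2.28 and Prm fell by 1.15 on the log2 scale, where Act57B fell by 1.94.

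Summed over the list, the body wall muscle markers ran from 39120 to 63750 CPM in Mef2>+, 11580 to 17270 in Mef2>Deaf1, 9364 to 28780 in Mef2>whiteRNAi, 42740 to 46900 in Mef2>Deaf1RNAi and 26440 to 35160 in the libraries labelled Gsk3CA. The 6 epidermis markers, from the other main tissue of the fillet, summed to between 117200 and 133100 CPM in Mef2>+ and 85040 and 112900 in Mef2>Deaf1. The lower sum in Mef2>Deaf1 came from Lcp3, a larval cuticle gene, which fell from 47340 ± 5456 to 7632 ± 2127 CPM (edgeR adjusted p = 0.00504). Cht5, a chitinase gene, rose there from 197 ± 58.0 to 331 ± 39.0 CPM (adjusted p = 0.0422), and the median of the 6 genes was 0.32. These 2 were named after their values were seen. The epidermis markers summed to 45700 to 98320 CPM in Mef2>whiteRNAi, 78230 to 123100 in Mef2>Deaf1RNAi and 42380 to 61560 in the libraries labelled Gsk3CA. The 6 fat body markers reached 7099 to 10580 CPM in Mef2>whiteRNAi against 2516 to 6875 in Mef2>+ and 2784 to 4850 in Mef2>Deaf1RNAi. The 5 hemocyte markers reached 1169 to 1415 CPM in Mef2>Deaf1 and 474 to 739 CPM in Mef2>whiteRNAi, against 792 to 1070 in Mef2>+. The 6 salivary glue genes spread widely, with sums of 9.16 to 1341 CPM in Mef2>Deaf1RNAi and 19.4 to 76.2 in Mef2>whiteRNAi (median log2 fold change 4, 1 of 6 called higher, beside 5.48% of all genes). Their sums were 1.28 to 15.3 CPM in Mef2>Deaf1 and 11.5 to 113.5 in Mef2>+ (median −3.57, none called with edgeR). The testis markers reached 49.8 to 247 CPM in the libraries labelled Gsk3CA and at most 36.7 CPM elsewhere. No epidermis, fat body or hemocyte marker was at 0 in all libraries of a genotype, and the part of these tissues in the actin values was not tested.

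Genes for proteins that build and turn over the cytoplasmic filaments made up another list. Of 19 regulators tested, 1 rose in Mef2>Deaf1RNAi, 2 fell in Mef2>Deaf1, 2 fell in the libraries labelled Gsk3CA and 1 fell in Mef2>whiteRNAi against Mef2>+, with medians between −0.12 and 0.13. Over all genes 5.48% were called higher in Mef2>Deaf1RNAi, and 7.38, 8.87 and 10.2% lower in the other 3 in that order, so counts of 1 or 2 of 19 are near or under the background. The genes called were flr, whose product helps cofilin take filaments apart, and form3, a formin gene. Each was named because it was called. In Mef2>Deaf1, flr fell by 0.68 and form3 fell by 0.68 on the log2 scale (edgeR adjusted p = 0.00197 and 0.00137), and in Mef2>Deaf1RNAi flr rose by 0.52 (adjusted p = 0.0118). The abundant members did not pass in any of the 4 comparisons: cher (filamin) had log2 fold changes of −0.30 to 0.45, chic (profilin) −0.03 to 0.19 and zip (non-muscle myosin heavy chain) −0.13 to 0.44.

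The Arp2/3 complex, which starts branched filaments, had 8 tested genes. Arp14D (0.37, edgeR adjusted p = 0.00694) and p16-ARC (0.36, adjusted p = 0.0266) rose in Mef2>Deaf1 (median of the 8 genes 0.23, 5.06% of all genes called higher). Arc-p34 (−0.24, adjusted p = 0.0338) and Arp66B (−0.29, adjusted p = 0.0157) fell in the libraries labelled Gsk3CA (median −0.19, 8.87% of all genes called lower). None was called in Mef2>Deaf1RNAi or between the controls (medians −0.00098 and 0.07). Sop2, the most abundant, was not called anywhere. Arp66B and p16-ARC were named after their values were seen. Of 7 other actin-related genes, Arp87C, a dynactin subunit gene, fell in the libraries labelled Gsk3CA (−0.41, adjusted p = 0.025), and neither Actr13E nor Arp11 passed in any comparison.

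The chaperonin CCT, which folds newly made actin and tubulin, was lower in the libraries labelled Gsk3CA, where all 8 subunit genes fell (median −0.50, against −0.04 over all genes), where 8.87% of all genes were called lower. Cct5 fell from 245.9 ± 6.59 CPM in Mef2>+ to 160.2 ± 22.6 CPM (log2 fold change −0.62, edgeR adjusted p = 0.00211). CG7033 fell by 0.49 and Tcp-1eta by 0.42 on the log2 scale. In the other comparisons 2 fell in Mef2>Deaf1 (median −0.20, 7.38% of all genes), 3 fell in Mef2>whiteRNAi against Mef2>+ (median −0.27, 10.2% of all genes) and none passed in Mef2>Deaf1RNAi (median −0.12).

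Of 3 regulators of actin transcription, 1 was called in Mef2>Deaf1RNAi, where 5.48% of all genes were called higher. This was bs, the fly serum response factor, which rose from 27.8 ± 1.08 to 36.5 ± 1.89 CPM (log2 fold change 0.39, edgeR adjusted p = 0.0123). Its cofactor Mrtf gave 0.39 (adjusted p = 0.168), and Mef2, the muscle transcription factor whose regulatory sequence drives the Gal4, gave −0.21 (adjusted p = 0.812). None of the 3 passed in the other comparisons.

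**Figure D5:**
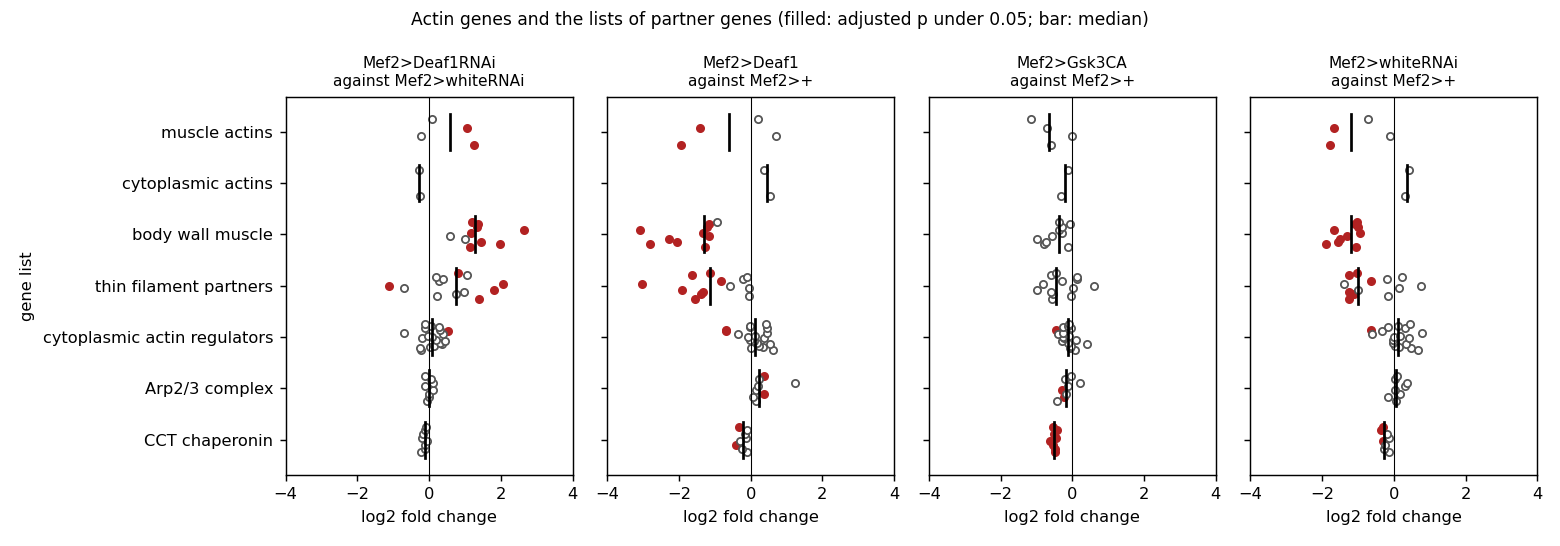
Log2 fold changes (horizontal axis) of the genes in each list (vertical axis) for the 4 comparisons. Each point is a gene, filled where the edgeR adjusted p is under 0.05, and the black bar is the median. The thin filament partners and body wall muscle markers lie with Act57B and Act87E (medians −1.14 and −1.29 in Mef2>Deaf1), while the regulators of cytoplasmic actin centre near 0 (0.13).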

How the data were processed

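RNA from filleted larvae was sequenced from stranded mRNA libraries with paired reads. The authors aligned the reads to BDGP5 with STAR and deposited unnormalized HTSeq counts per gene symbol, and the strand and overlap settings are not given in the sources used here. Entries on no gene, ambiguous entries (1.74 to 3.07%) and alignments that were not unique were left out of library sizes and tests. Replicates are called biological in the study's methods. They were not the same library sequenced again, as the chi-square per gene between replicates was at least 5.51. That lowest value was between Mef2>+ replicates 1 and 2, which differed from replicate 3 by 180.3 and 202.5. Every other pair gave 15.7 or more. Such values cannot tell whether the libraries of a pair came from separate larvae. The genotype of each library came from its labels, and 0 columns were left unmapped.

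Counts were scaled with TMM factors and tested with edgeR 4.0.16 (R 4.3.3), the quasi-likelihood test in 1 fit of all 15 libraries with filterByExpr (minimum count 10) and Benjamini-Hochberg adjustment over 10930 genes. An adjusted p under 0.05 was a call, two-sided. The study's own model was limma voom, which was run as an alternative (limma 3.58.1), as was DESeq2 1.42.0. The scripts were tested on simulated counts with the same dispersion for every gene. That run checks the code and does not show how the tests behave at the spread of these libraries. CPM used the TMM factors, and RPKM divided CPM by BDGP6 exon length (15369 of 15682 symbols matched). With 3 against 3 libraries the exact permutation test cannot go below p = 0.1, so overlap of libraries is described instead.

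Same-numbered libraries of Mef2>Deaf1 and Mef2>+ deviated together from their genotype means (correlations 0.30, 0.24 and 0.48). Those of the libraries labelled Gsk3CA and Mef2>+ deviated in opposite directions (−0.56, −0.65 and −0.78), and the remaining comparisons ran from −0.23 to 0.22. Coefficients of this size therefore do not show a pairing. No label states one, and the main fit held no replicate term.

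The genes named by rule were the 6 actins, Deaf1, sgg and w, the 3 most abundant genes of each list and the 3 genes most like each actin. Also named, after their values were seen, were flr, form3, Arp66B, p16-ARC, Lcp3, Cht5, Actn, TpnC25D, TpnC47D and TpnC41C. Members and lists were chosen with earlier results of these data known. No sequences are shown.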

Additional observations from a re-analysis of the deposited data

Results flagged for a closer look

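In the part of the files that the comparisons did not use, the share of entries aligned to more than 1 place ran from 3.549 to 5.675% in the 12 libraries with a second transgene, above the 2.528 to 2.597% of the 3 Mef2>+ libraries. The near-identical coding sequences of the actins are among the places where such alignments can arise, and which genes they came from was not tested.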

How the results depend on the processing

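Of 298 values recomputed for single genes, 254 kept their direction and side of the threshold, 24 changed sign, 17 lost a call without changing sign and 3 gained one. With the 3 that changed sign and also lost a call, 20 lost a call. For Mef2>Deaf1RNAi against Mef2>whiteRNAi the 2 calls became 1 with no filter on low counts (Act87E) and 0 with the replicate block, with only the libraries compared or with Mef2>+ as the control, and 0 to 2 with 1 library left out. The replicate block gave edgeR adjusted p of 0.0644 for Act57B and 0.0741 for Act87E there, and changed no other actin call. No label states that same-numbered libraries belong together. For Mef2>Deaf1 the 2 calls became 0 with Mef2>whiteRNAi as the control. Between the controls they became 1 with only the libraries compared. The libraries labelled Gsk3CA had 0 calls in every setting. With Mef2>+ as the control for Mef2>Deaf1RNAi, Act57B gave −0.551, Act87E −0.611, Act88F −0.624, Act5C 0.134 and Act42A 0.0406, and with Mef2>whiteRNAi as the control for Mef2>Deaf1, Act87E gave 0.246 and Act5C −0.0522. The other changes of sign were small and in genes never called. Act88F gave −0.0205 with limma voom in Mef2>Deaf1. Act79B gave 0.0149 with limma voom between the controls, and in the libraries labelled Gsk3CA 0.0829 with RLE size factors, 0.111 with DESeq2, 0.0713 with limma voom and 0.0765 with only the libraries compared. Leaving out 1 library gave −0.494 to 0.000921 for Act79B and −0.184 to 0.433 for Act88F in Mef2>Deaf1RNAi, −0.357 to 0.526 for Act88F in Mef2>Deaf1, −0.386 to 0.312 for Act79B and −0.345 to 0.0655 for Act5C in the libraries labelled Gsk3CA, and −0.399 to 0.179 for Act79B between the controls. Without division by length the mean muscle share was 84.7% in Mef2>+, 54.3% in Mef2>Deaf1, 78.1% in Mef2>Deaf1RNAi, 53.8% in Mef2>whiteRNAi and 80.1% in the libraries labelled Gsk3CA, where division gave 89.4, 64.0, 84.6, 63.4 and 86.0%. The cause was not tested. Act88F could not be tested with only the libraries compared in 2 comparisons, and a length from windows unique to each gene was not run. The depth limits Act79B and Act88F.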
